A study of Homo sapiens with 23 samples.

Results

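The genes described here are 8 muscle genes of the ubiquitin system: the muscle RING-finger ligases TRIM63 (MuRF1), TRIM55 (MuRF2) and TRIM54 (MuRF3), the F-box proteins FBXO32 (atrogin-1) and FBXO40, and the Kelch proteins KLHL31, KLHL40 and KLHL41. They were taken by name from the 57477 genes of the count table, and all 8 were found. RNA came from H1-hESC, an established human embryonic stem cell line with the wild-type genotype, along a directed differentiation into cardiomyocytes. Total RNA was collected at 8 times: day 0, day 1, day 3, day 5, day 7, day 10 (2 libraries), day 14 and day 28 (3 libraries on each other day). Stem cells (day 0) were kept in mTesR1 medium and the cardiomyocytes in RPMI medium that contained insulin, and the labels name no other allele or agent. Undifferentiated cultures of later days were not analysed here, so time in culture, medium and differentiation cannot be told apart.

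Ubiquitin ligases mark proteins for the proteasome. The MuRF proteins are ligases of the muscle sarcomere that bind titin and one another, and MuRF1 and atrogin-1 are the classical genes of muscle atrophy, induced by FOXO factors and glucocorticoids and restrained by insulin signalling. F-box proteins bring substrates to the cullin CUL1 through SKP1, and BTB-Kelch proteins bring them to CUL3. KLHL40 and KLHL41 are also stabilisers of thin-filament proteins, and loss of either causes nemaline myopathy.

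Total counts per library ranged from 4330334 (day 5 replicate 3) to 22089595 (day 0 replicate 2). Levels are given as CPM: each count was divided by the size of its library and by a TMM factor, which corrects for library composition. SDs are over 3 libraries, or over 2 at day 10. Changes are log2 fold changes with their SE from 1 edgeR quasi-likelihood fit of all 23 libraries, with p adjusted over 22245 genes, and a gene was called at an adjusted p under 0.05. Same-day libraries correlated at 0.968 to 0.993 (Pearson, across genes), and at 0.907 to 0.956 on day 5. The 22 cardiomyocyte markers summed to 403 CPM in the stem cells of day 0, 31240 CPM on day 7, 43379 CPM on day 14 and 79887 CPM on day 28. Of the skeletal muscle regulators, MYOD1 was at 0 CPM at days 7, 10 and 14 and at 0.0515 ± 0.0892 CPM at day 28, and MYOG reached at most 0.395 ± 0.182 CPM, at day 28. The whole list of 17 skeletal muscle genes summed to between 977 and 1313 CPM at day 28, against 486 to 721 CPM at day 7. Of its 11 tested genes, 3 were called higher and 3 lower at day 28 against day 7. Both counts are near the shares of all tested genes, 25.0% higher and 23.6% lower. ACTA1, skeletal alpha-actin, which heart muscle also makes, was at 905 ± 131 CPM at day 28, against 218 ± 66.8 CPM at day 7 (log2 change 2.05, SE 0.36, adjusted p = 4.86e-05). Its course was not a steady rise. ACTA1 was at 36.7 ± 13.7 CPM at day 14, against 242 ± 9.81 CPM at day 10 (log2 change -2.72, SE 0.39, adjusted p = 0.000214). In bulk RNA, fewer cells of a type and less RNA per cell cannot be told apart. Replicates are separate libraries of a day, and nothing says that they came from separate cultures, so a p-value covers the spread among libraries, which may be technical.

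All 8 genes were under 5 CPM on average at day 0, and each was higher at day 28 than at day 0. They reached their highest means on different days: TRIM63 and TRIM55 at day 28, TRIM54, FBXO40, KLHL31 and KLHL41 at day 14, and FBXO32 and KLHL40 at day 10. In the edgeR fit, only TRIM63 and FBXO40 had a called change between their highest and second highest days. For the others that step was not called, with adjusted p between 0.388 (KLHL40) and 0.969 (TRIM54), so their highest day is not settled. TRIM63 had a higher mean on each later day and was 3.07-fold higher at day 28 than at day 14. The TRIM54 libraries of days 7 to 28 overlapped, and so did those of FBXO32 except that its day 28 libraries were below its day 10 libraries. FBXO40 and KLHL40 fell between days 14 and 28.

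**Figure D1:**
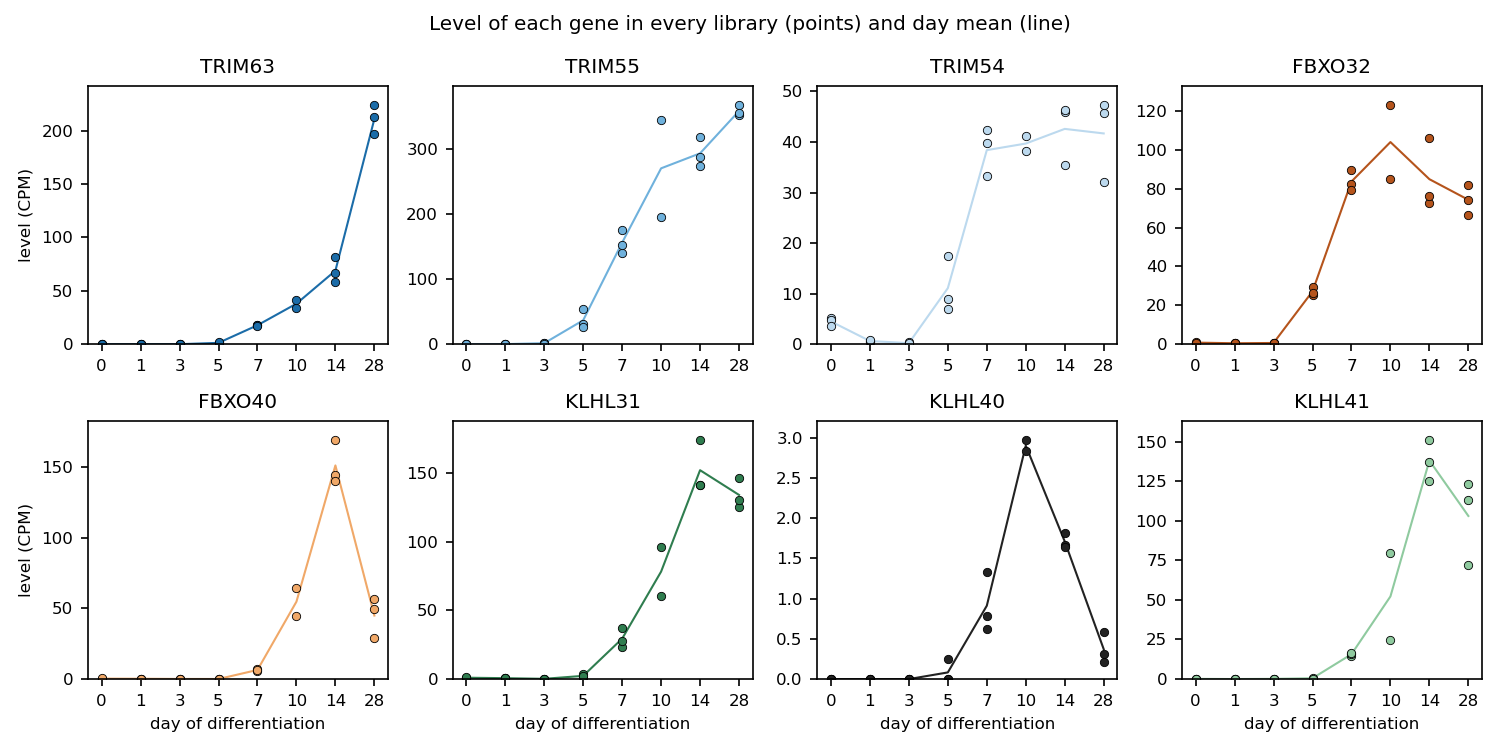
Level in CPM (vertical axis, linear, own scale per gene) of the 8 genes in every library (points) against the day of differentiation (evenly spaced); lines join the day means. The mean of TRIM63 was highest at day 28, at 211 CPM, and that of FBXO40 at day 14, at 151 CPM. The day means of TRIM54 lay between 38.4 and 42.6 CPM from day 7.

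TRIM63 encodes MuRF1, the ligase that targets myosin heavy chain and other thick-filament proteins. The gene (ENSG00000158022) spans chr1:26051301-26068436 in GRCh38, on the minus strand. TRIM63 had 0 counts in the 3 day 0 libraries, which allows up to 0.0528 CPM, and 1 count in all at day 1 and 3 counts at day 3. At day 5 it had 0.721, 0.976 and 2.23 CPM, at day 7 18.2, 18.2 and 16.9 CPM, and at day 10 34.4 and 41.6 CPM. It was at 197, 224 and 213 CPM in the day 28 libraries, against 58.2, 81.4 and 67.0 CPM at day 14. Every day 28 library thus stood above every day 14 library, and from day 3 onward no 2 neighbouring days overlapped. The day 28 against day 14 change was 1.62 on the log2 scale (SE 0.28, adjusted p = 0.000182), and that of day 28 against day 7 was 3.57 (SE 0.30, adjusted p = 2.57e-09). Against day 0 the level at day 28 was at least 4003-fold higher, with the day 0 level set at 3 counts over its 3 libraries.

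TRIM55 encodes MuRF2, which binds titin and microtubules during sarcomere assembly. The gene (ENSG00000147573) spans chr8:66126896-66175485, on the plus strand. It was the first of the 8 to rise: it had 2.31, 1.79 and 0.703 CPM at day 3, against 0.155, 0.244 and 0.173 CPM at day 1 (log2 change 3.02, SE 0.51, adjusted p = 5.49e-05). All 3 day 3 libraries were above those of day 1. Mean levels were 36.8 ± 15.0 CPM at day 5, 156 ± 17.4 CPM at day 7 and 270 ± 106 CPM at day 10. They reached 293 ± 22.7 CPM at day 14 and 358 ± 7.83 CPM at day 28. The 2 day 10 libraries, at 344 and 195 CPM, stood on both sides of the day 14 values, so the order of those 2 days is not settled. Day 28 was above day 7 (log2 change 1.20, SE 0.30, adjusted p = 0.00218), but the day 28 against day 14 change of 0.29 (95% interval -0.33 to 0.90) did not pass the test.

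TRIM54 encodes MuRF3, which stabilises microtubules in muscle cells. The gene (ENSG00000138100) spans chr2:27282429-27307439, on the plus strand. It was the only one of the 8 above 2 CPM in the stem cells: it had 0.464, 0.586 and 0.864 CPM at day 1, against 5.20, 4.71 and 3.63 CPM at day 0 (log2 change -2.83, SE 0.40, adjusted p = 7.88e-06). At day 3 it was at 0.219 ± 0.192 CPM. Levels were 11.1 ± 5.52 CPM on day 5 and 38.4 ± 4.73 CPM on day 7. From day 7 to day 28 its means lay between 38.4 and 42.6 CPM and the libraries of these 4 days overlapped. The day 28 against day 7 change was 0.11, with a 95% interval from -0.50 to 0.73. TRIM54 shares 40 exon bases with UCN on the other strand, which had 138 counts in all libraries together, against 4834 for TRIM54.

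The make-up of the MuRF genes also differed between days. Counts per kilobase of exon allow levels to be compared between genes. At day 7 TRIM55 made up 70.6 ± 1.67% of the family's counts per kilobase, TRIM54 19.7 ± 1.77% and TRIM63 9.71 ± 1.05%. TRIM63 made up 38.4 ± 2.03% at day 28, against 19.4 ± 1.35% at day 14, and TRIM54 7.14 ± 1.33% at day 28, against 11.3 ± 1.01% at day 14. TRIM55 made up 54.4 ± 1.92% at day 28, against 69.3 ± 1.80% at day 14. For each of these day 28 shares all 3 libraries lay outside the range of the day 14 libraries, and the exact two-sided permutation p was 0.1, the smallest that 3 against 3 libraries can give (0.126 after adjustment over 24 share comparisons). At day 0 TRIM54 made up 98.5 ± 1.33% of the family, from 263 counts.

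**Figure D2:**
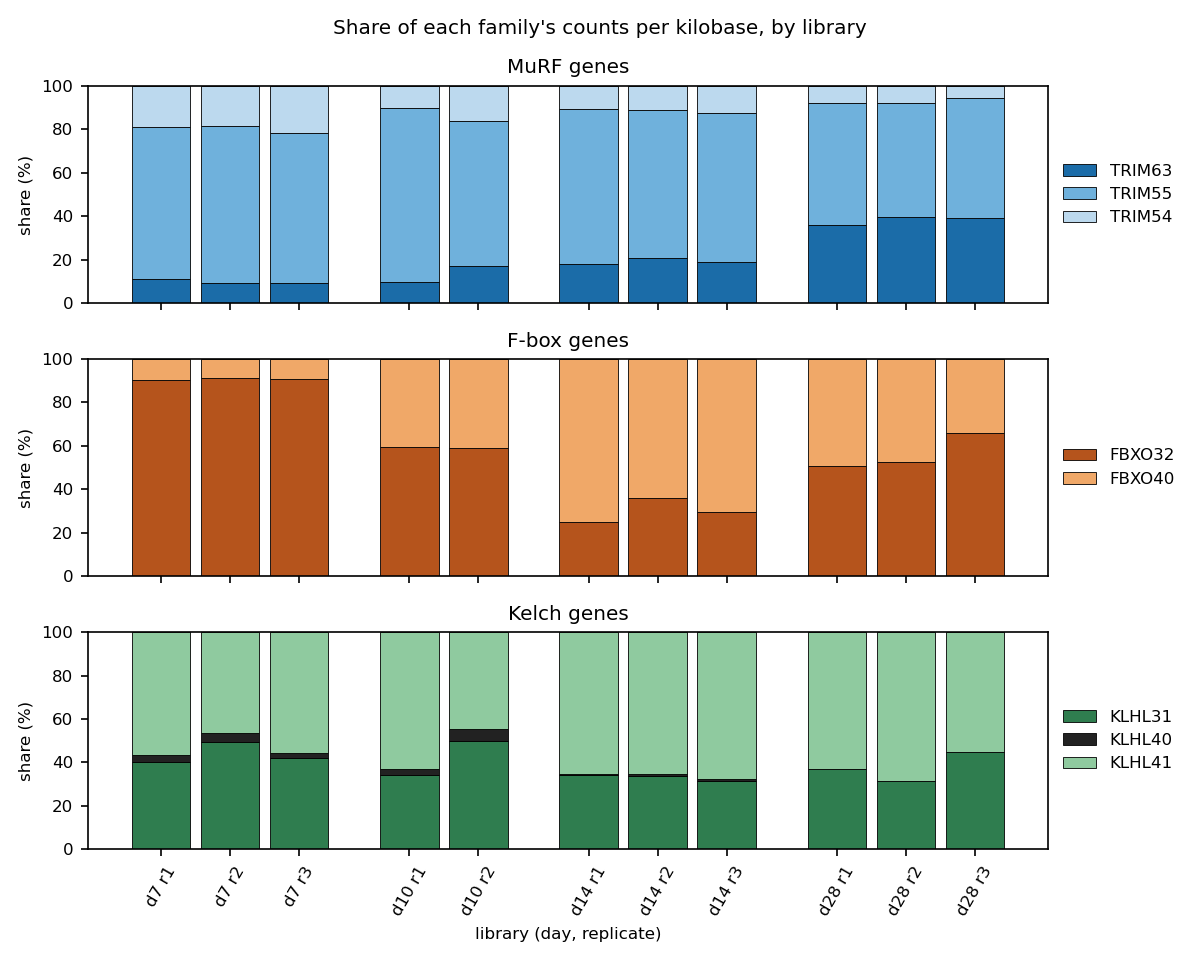
Share (percent, vertical axis) of each gene in its family's counts per kilobase in every library of days 7 to 28 (horizontal axis); each bar is 1 library and sums to 100%. TRIM63 took 38.4% of the MuRF genes at day 28, and FBXO40 took 70.0% of the F-box pair at day 14.

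FBXO32 encodes atrogin-1, the F-box protein that marks EIF3F, calcineurin and MYOD1 for breakdown in muscle. The gene (ENSG00000156804) spans chr8:123497889-123541206, on the minus strand. Its main rise came between days 3 and 5: it had 25.5, 29.7 and 26.6 CPM at day 5, against 0.577, 0.70 and 0.703 CPM at day 3 (log2 change 5.37, SE 0.29, adjusted p = 8.81e-13). These day 5 libraries varied little, with a coefficient of variation of 8.03%. Its mean was 83.7 ± 5.36 CPM on day 7 and 104 ± 27.3 CPM on day 10, then 84.9 ± 18.0 CPM on day 14 and 74.3 ± 7.61 CPM on day 28. Its day 28 libraries ran from 66.7 to 81.9 CPM, below the 84.8 and 123 CPM of day 10, a pair of days that was not tested; every other pair of these 4 days overlapped. The day 28 against day 7 change was -0.17 (95% interval -0.61 to 0.27, adjusted p = 0.529). With library totals alone as the scaling, that change passed the threshold (-0.50, adjusted p = 0.0488), and likewise with only the libraries of the 2 days in the fit (-0.24, adjusted p = 0.0441).

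FBXO40 encodes a muscle F-box protein that marks the insulin receptor substrate IRS1 for breakdown. The gene (ENSG00000163833) spans chr3:121593379-121630295, on the plus strand. It had 2 counts in all at day 5 and 146 at day 7, a ratio of 84.6 with a counting interval from 23 to 705. From there it had 7.26, 5.90 and 6.23 CPM at day 7, 64.6 and 44.8 CPM at day 10, and 169, 144 and 140 CPM at day 14. At day 28 it was at 49.3, 56.3 and 29.2 CPM, below every day 14 library (log2 change -1.75, SE 0.27, adjusted p = 4.26e-05). It was still above day 7 at day 28 (log2 change 2.8, SE 0.30, adjusted p = 4.32e-08). FBXO40 made up 43.4 ± 8.31% of the F-box pair's counts per kilobase at day 28, against 70.0 ± 5.59% at day 14 and 9.14 ± 0.510% at day 7. The day 28 and day 14 libraries did not overlap (exact permutation p = 0.1, the smallest possible; 0.126 adjusted).

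KLHL31 encodes a BTB-Kelch protein whose loss causes myopathy in mice. The gene (ENSG00000124743) spans chr6:53647916-53665756, on the minus strand. It stood at 1.00 ± 0.231 CPM at day 0 and was lower at day 3 than at day 1, with 0.267, 0 and 0.301 CPM at day 3 and 0.696, 0.586 and 0.691 CPM at day 1 (log2 change -1.68, SE 0.60, adjusted p = 0.0306). That call rests on 9 and 29 counts, and it was lost when any library of day 1, or replicate 1 or 2 of day 3, was left out, with adjusted p between 0.0527 and 0.143, and with library totals alone as the scaling (adjusted p = 0.0607). It then had 23.1, 37.5 and 27.5 CPM at day 7, 96.0 and 60.4 CPM at day 10, 174, 141 and 141 CPM at day 14 and 146, 125 and 130 CPM at day 28. Days 14 and 28 overlapped (log2 change -0.19, 95% interval -0.81 to 0.44), and all their libraries were above those of days 10 and 7.

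KLHL41 encodes a Kelch protein at the ends of growing myofibrils that binds NRAP and nebulin. The gene (ENSG00000239474) spans chr2:169509702-169526258, on the plus strand. It shares 937 exon bases with ENSG00000251569, a gene on the same strand that had 0 counts in every library, and reads in shared bases may not have been counted for either. KLHL41 had 14.7, 16.0 and 16.5 CPM at day 7, 79.8 and 24.6 CPM at day 10, and 151, 125 and 137 CPM at day 14. The 2 day 10 libraries thus stood far apart, with replicate 1 the higher. At day 28 it had 113, 123 and 72.2 CPM, all below day 14, but the change of -0.42 did not pass the test (95% interval -1.11 to 0.27, adjusted p = 0.468).

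KLHL40 encodes the Kelch protein that in mice protects nebulin and LMOD3, an actin nucleator of thin filaments, from degradation. The gene (ENSG00000157119) spans chr3:42685537-42692544, on the plus strand. It was the lowest of the 8, with 127 counts in all 23 libraries and 0 in 11 of them. It had 0 counts at days 0, 1 and 3 and 1 count at day 5. At day 7 it had 0.785, 1.33 and 0.623 CPM, at day 10 2.97 and 2.83 CPM, at day 14 1.81, 1.67 and 1.64 CPM, and at day 28 0.591, 0.309 and 0.216 CPM. It was lower at day 28 than at day 14 (log2 change -2.17, SE 0.52, adjusted p = 0.00628, from 15 and 43 counts), with no overlap between libraries. Against day 0 its day 28 level was at least 7.05-fold higher, with day 0 set at 3 counts over its libraries. In the Kelch genes' counts per kilobase, KLHL40 made up 0.232 ± 0.0968% at day 28, against 0.860 ± 0.0527% at day 14 and 3.13 ± 0.917% at day 7, while KLHL41 made up 62.1 ± 6.72%, 66.1 ± 1.29% and 53.0 ± 5.52% on the same days. With the bases that KLHL41 shares left out of its length, its shares were 71.8%, 75.2% and 63.6%, and those of KLHL40 0.172%, 0.628% and 2.43%.

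Of the 5 genes with a RefSeq promoter entry, the 3 with a match to the binding motif of MEF2, a family of muscle transcription factors, are shown with the 250 bases before their start sites, read 5′ to 3′ on the gene's strand from RefSeq (GRCh38.p14). Capitals mark the MEF2 match and, in FBXO40, also the TATA box letters TATAAA.
FBXO40, chr3:121593129-121593378, plus strand: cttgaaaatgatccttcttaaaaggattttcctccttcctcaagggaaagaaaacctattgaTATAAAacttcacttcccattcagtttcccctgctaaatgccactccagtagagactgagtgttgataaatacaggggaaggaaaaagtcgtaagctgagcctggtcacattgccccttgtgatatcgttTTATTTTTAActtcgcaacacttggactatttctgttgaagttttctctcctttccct
KLHL40, chr3:42685287-42685536, plus strand: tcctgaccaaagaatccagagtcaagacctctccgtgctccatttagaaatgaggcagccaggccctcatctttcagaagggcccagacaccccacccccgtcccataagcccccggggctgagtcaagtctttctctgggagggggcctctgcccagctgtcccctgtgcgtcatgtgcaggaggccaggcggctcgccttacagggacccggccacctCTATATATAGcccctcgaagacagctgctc
KLHL41, chr2:169509452-169509701, plus strand: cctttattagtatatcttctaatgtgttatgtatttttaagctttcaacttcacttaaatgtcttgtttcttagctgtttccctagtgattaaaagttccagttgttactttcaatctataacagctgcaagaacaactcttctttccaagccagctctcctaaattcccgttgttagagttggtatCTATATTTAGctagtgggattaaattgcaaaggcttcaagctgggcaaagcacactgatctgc

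The MEF2 match lies at bases -58 to -49 from the start site in FBXO40, at -30 to -21 in KLHL40 and at -63 to -54 in KLHL41. On both strands, a MEF2 match is in 2.8% of the 35116 RefSeq promoter windows of this length. The other 2 matched genes, TRIM63 and TRIM54, had no MEF2 match, and TRIM63 had TATAAA at -31 to -26, letters found in 10.7% of windows. The FBXO40 TATAAA lies at -188 to -183. E-box letters CANNTG, in 61.8% of windows, were in all 5 windows, while the FOXO letters GTAAACA (2.98% of windows) and the CArG motif of SRF (1.16%) were in none. No match overlapped another. A match is a run of letters and not a measured binding site.

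Set side by side per kilobase, the order of the 8 genes changed with time. At day 7 TRIM55 led at 50.6 RPKM (CPM per kilobase of exon), followed by TRIM54 at 14.1, FBXO32 at 11.3, TRIM63 at 6.90, KLHL41 at 6.02, KLHL31 at 5.08, FBXO40 at 1.14 and KLHL40 at 0.364 RPKM. If no read in its 937 shared bases was counted, KLHL41 is better set per kilobase of the other 1679, an alternative added after seeing the data: it was then at 9.38 RPKM at day 7, above TRIM63, at 82.0 RPKM at day 14 and at 61.3 RPKM at day 28. Its place in the order of days 14 and 28 did not change. TRIM55 still led at day 14 at 95.1 RPKM, then came KLHL41 at 52.6, while TRIM63, FBXO40 and KLHL31 were close at 26.7, 26.7 and 26.4 RPKM. That closeness depends on the length used. With the longest transcript as length, TRIM63 had 32.9, 46.0 and 37.8 RPKM in the day 14 libraries, while FBXO40 and KLHL31 did not change. At day 28 TRIM63 was second at 82.0 RPKM, behind TRIM55 at 116 RPKM and ahead of KLHL41 at 39.3 RPKM. FBXO40 had 7.93 RPKM at day 28, next to 10.0 RPKM for FBXO32.

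Between days 1 and 0, TRIM54 was called lower, 6 of the 8 did not pass and KLHL40 had no counts, on a background of 16.5% of all tested genes lower and 15.3% higher. Between days 3 and 1, TRIM55 was called higher and KLHL31 lower, with 18.2% of all genes higher and 19.0% lower. At day 5 against day 3, TRIM63, TRIM55, TRIM54, FBXO32 and KLHL31 were called higher, 5 of 8, where 10.3% of all genes were higher and 6.33% lower. The median change of the 8 in that step was 3.94, with KLHL40 left out, against 0.01 for all genes. Some of these sizes rest on few counts. TRIM63 had 29 counts at day 5 and 3 at day 3, a ratio of 16.4 with a counting interval from 5.09 to 84.2. All 3 came from day 3 replicate 1, and without it the day 5 level was at least 9.96-fold higher, with day 3 set at 3 counts over its libraries. The same omission left TRIM54 with 3 day 3 counts, a ratio of 69.8 (counting interval 23.6 to 341), and leaving out day 5 replicate 2 gave a log2 change of 2.67 for KLHL31, against 3.59 with it. These 3 genes stayed past the threshold. KLHL41, which was not called (adjusted p = 0.0924), passed it without day 3 replicate 1 (adjusted p = 0.0299), from 18 counts at day 5 and 1 at day 3. Markers of several cell types moved in the same step: 16 of 22 cardiomyocyte, 7 of 9 fibroblast, 6 of 8 smooth muscle, 5 of 8 endoderm and 4 of 7 endothelial markers were called higher. Their part in these changes was not tested.

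The step from day 5 to day 7 was the one in which all 8 rose. At day 7 against day 5, 8 of 8 were called higher, on a background of 5.32% of all genes higher and 5.02% lower, and the median change was 3.76, against -0.09 for all genes. The smallest rises were those of FBXO32 (1.62, SE 0.22, adjusted p = 1.45e-05) and TRIM54 (1.85, SE 0.32, adjusted p = 0.000275). TRIM63 rose by 3.95 (SE 0.37, adjusted p = 7.36e-08), KLHL31 by 3.57 (SE 0.37, adjusted p = 2.14e-07) and KLHL41 by 4.60 (SE 0.49, adjusted p = 2.80e-07). For KLHL40, 21 counts at day 7 stand against 1 at day 5, a ratio of 24.3 with a counting interval from 3.91 to 1006. In the same step 21 of 22 cardiomyocyte markers were called higher and 1 did not pass, with a median change of 2.45. Of the other lists, 4 of 7 endothelial, 3 of 8 smooth muscle and 4 of 11 skeletal muscle genes were called higher, and 3 of 9 fibroblast markers lower. Day 5 replicate 2 carried more KLHL31 and KLHL41 than the other 2: without it the day 7 change was 4.46 for KLHL31 and 5.66 for KLHL41, and the ratio of KLHL40 was 11.3 (counting interval 1.81 to 466). Without day 5 replicate 3, which held its 1 count, KLHL40 was at least 6.88-fold higher at day 7, with day 5 set at 3 counts over its libraries.

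At day 10 against day 7, TRIM63, FBXO40, KLHL31 and KLHL41 were called higher, 4 of 8, where 4.17% of all genes were higher and 3.50% lower. FBXO40 rose by 3.09 (SE 0.32, adjusted p = 2.25e-06), and its call held without each of the 5 libraries. The other 3 calls were lost when single libraries were left out. KLHL41 changed by 1.72 (adjusted p = 0.00645) with both day 10 libraries and by 0.62 (adjusted p = 0.613) without replicate 1, and KLHL31 by 1.41 (adjusted p = 0.0112) and 1.01 (adjusted p = 0.295). KLHL31 also lost its call without day 7 replicate 1 or 3, with changes of 1.21 and 1.30 (adjusted p = 0.0724 and 0.0664). TRIM63 changed by 1.10 (adjusted p = 0.0308) and lost its call whichever of the 5 libraries was left out, with changes between 0.88 and 1.20 and adjusted p between 0.0945 and 0.179, and with library totals alone (0.92, adjusted p = 0.0652). With only the libraries of the 2 days in the fit, TRIM55 (0.76, adjusted p = 0.0221) and KLHL40 (1.63, adjusted p = 0.0201) passed as well, and KLHL40 also with a minimum of 30 counts (adjusted p = 0.0479).

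At day 14 against day 10, FBXO40 and KLHL41 were called higher, 2 of 8, where 1.64% of all genes were higher and 2.11% lower. FBXO40 changed by 1.47 (SE 0.31, adjusted p = 0.00876), or by 1.20 without day 10 replicate 2 (adjusted p = 0.219). KLHL41 changed by 1.40 (adjusted p = 0.0457), by 0.76 without day 10 replicate 2 (adjusted p = 0.538) and by 2.41 without day 10 replicate 1. It also lost its call without any 1 of the 3 day 14 libraries, with changes between 1.29 and 1.43 (adjusted p between 0.0641 and 0.129), and with only the libraries of the 2 days in the fit (adjusted p = 0.0532). TRIM63 and KLHL31 passed the threshold as well in that fit (adjusted p = 0.0367 and 0.0361) and by DESeq2 (adjusted p = 0.00386 and 0.0361).

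Between days 14 and 28 the 8 genes parted. TRIM63 was called higher, FBXO40 and KLHL40 lower, and 5 did not pass, where 7.96% of all genes were higher and 7.78% lower. The median change of the 8 was -0.19, against -0.03 for all genes. All 3 calls held under every scaling, filter and tool tried and without each library in turn. Markers of several cell types moved in the same step, and their part in these changes was not tested. Between these days, 12 of 22 cardiomyocyte markers were called higher and 1 lower. The 8 smooth muscle markers summed to between 3096 and 3760 CPM at day 28, against 465 to 772 CPM at day 14, and the 9 fibroblast markers to between 3462 and 3992 CPM, against 528 to 951 CPM. The 8 endoderm markers summed to between 125 and 297 CPM at day 28, against 558 to 3409 CPM at day 14.

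**Figure D3:**
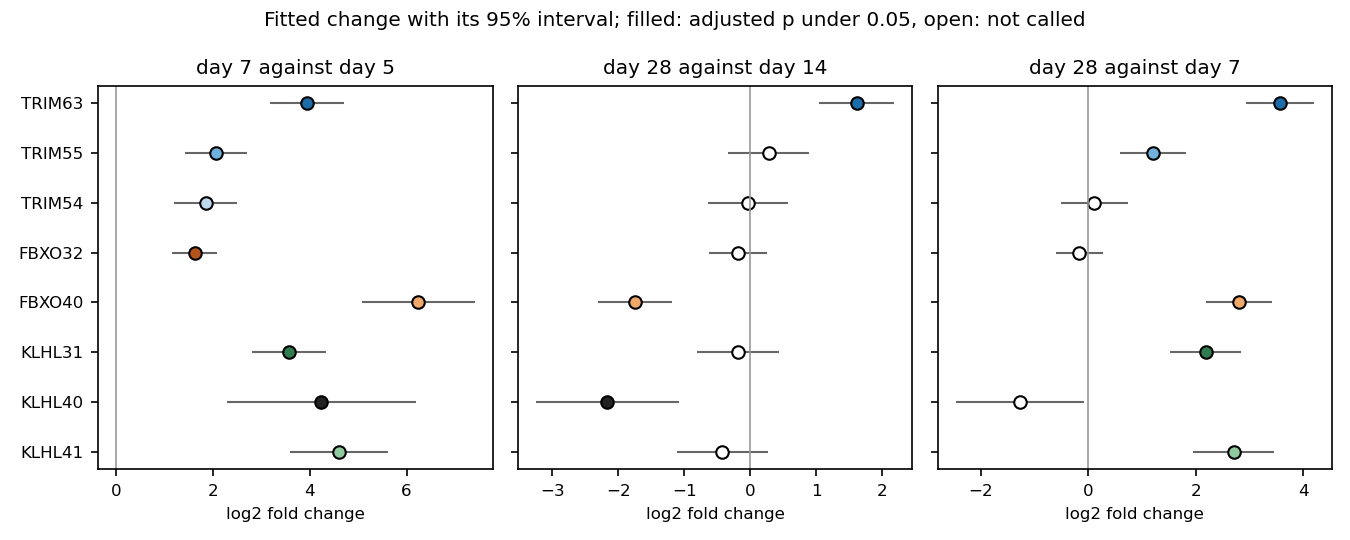
Fitted log2 fold change (horizontal axis) with its 95% interval for the 8 genes in 3 comparisons; filled circles passed an adjusted p of 0.05 and open ones did not. All 8 were above 0 at day 7 against day 5, while at day 28 against day 14 TRIM63 was at 1.62, FBXO40 at -1.75 and KLHL40 at -2.17.

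Over the longer span, at day 28 against day 7, TRIM63, TRIM55, FBXO40, KLHL31 and KLHL41 were called higher, 5 of 8, where 25.0% of all genes were higher and 23.6% lower. KLHL31 changed by 2.18 (SE 0.32, adjusted p = 5.11e-06) and KLHL41 by 2.71 (SE 0.36, adjusted p = 1.55e-06). KLHL40 stood at 0.372 CPM at day 28, against 0.911 CPM at day 7, and its change of -1.27 (SE 0.57, adjusted p = 0.0724) passed the threshold only under upper-quartile scaling (adjusted p = 0.0442), with library totals alone (adjusted p = 0.0280) and without day 28 replicate 1 (adjusted p = 0.0345). At day 28 against day 0, 8 of 8 were called higher, where 32.1% of all genes were higher and 28.4% lower. Of the genes with counts at day 0, TRIM55 had the largest fitted change, 11.84 (SE 0.53). Without day 0 replicate 2, which held 3 of its 5 day 0 counts, the ratio for TRIM55 was 6370 (counting interval 1763 to 52607). TRIM54, which was already present in the stem cells, had the smallest, 3.20 (SE 0.33).

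Relative to the summed counts of the 22 cardiomyocyte markers, TRIM63 was the only one of the 8 higher at day 28 than at day 14. It had between 2.35 and 3.08 counts per 1000 marker counts at day 28, against 1.36 to 1.81 at day 14. The other 7 were lower on this scale, without overlap between the libraries, from a ratio of 0.670 for TRIM55 to 0.158 for FBXO40 and 0.117 for KLHL40. FBXO32 had a lower mean on each later day from day 5 onward on this scale: 3.16 on day 5, 2.7 on day 7, 2.19 on day 10, 1.95 on day 14 and 0.939 on day 28. The marker sum itself changed make-up: MYH7, the slow myosin heavy chain, made up 22.2% of it at day 28, against 3.13% at day 14. With TNNT2, cardiac troponin T, in place of the sum, an alternative added after seeing the data, the ratio of day 28 over day 14 was 1.90 for TRIM63, 0.764 for TRIM55 and between 0.135 and 0.602 for the other 6, and only the TRIM55 libraries overlapped.

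**Figure D4:**
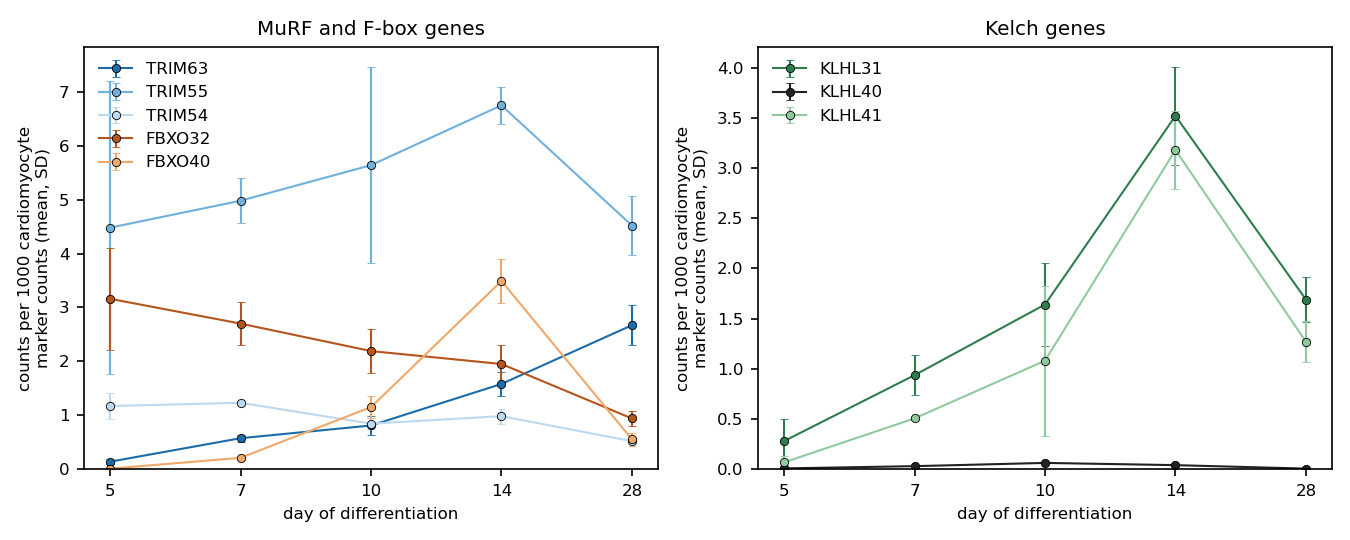
Counts of each gene per 1000 counts of 22 summed cardiomyocyte markers (vertical axis, mean and SD over 3 libraries, 2 at day 10) by day (horizontal axis, evenly spaced). TRIM63 was highest at day 28, at 2.67, FBXO32 was lowest at day 28, at 0.939, and FBXO40, KLHL31 and KLHL41 were highest at day 14.

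Genes tied to the 8 as substrates or partners include calls in both directions. All values here and below are RNA levels, and the amounts of the proteins and their breakdown were not measured. Of the 17 tested genes on a list of 18, 8 were called higher and 3 lower at day 28 against day 7, where 25.0% of all genes were higher and 23.6% lower. Between days 14 and 28, 5 were higher and 4 lower, on shares of 7.96% and 7.78% of all genes. LMOD3 averaged 10.2 ± 3.83 CPM on day 28 and 7.36 ± 3.05 CPM on day 14, against 0.0402 ± 0.0695 CPM on day 7, and its day 14 against day 10 change was 2.71 (SE 0.51, adjusted p = 0.00324). Its mean was highest at day 28, when KLHL40 was at 0.372 CPM. The day 28 against day 14 change of LMOD3, 0.47 (SE 0.35, adjusted p = 0.425), did not pass the test. Nebulin (NEB) was at 10.8 ± 1.59 CPM at day 28, against 22.8 ± 4.72 at day 14 (log2 change -1.08, SE 0.34, adjusted p = 0.0325). Its change from day 7 to day 28 did not pass (-0.31, adjusted p = 0.477). NRAP, an anchor of new myofibrils, was at 75.6 ± 20.9 CPM at day 28, against 1.35 ± 0.901 CPM at day 14 (log2 change 5.80, SE 0.53, adjusted p = 2.55e-08). KLHL41, its binding partner, had reached 138 CPM by day 14, when NRAP was still at 1.35 CPM.

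**Figure D5:**
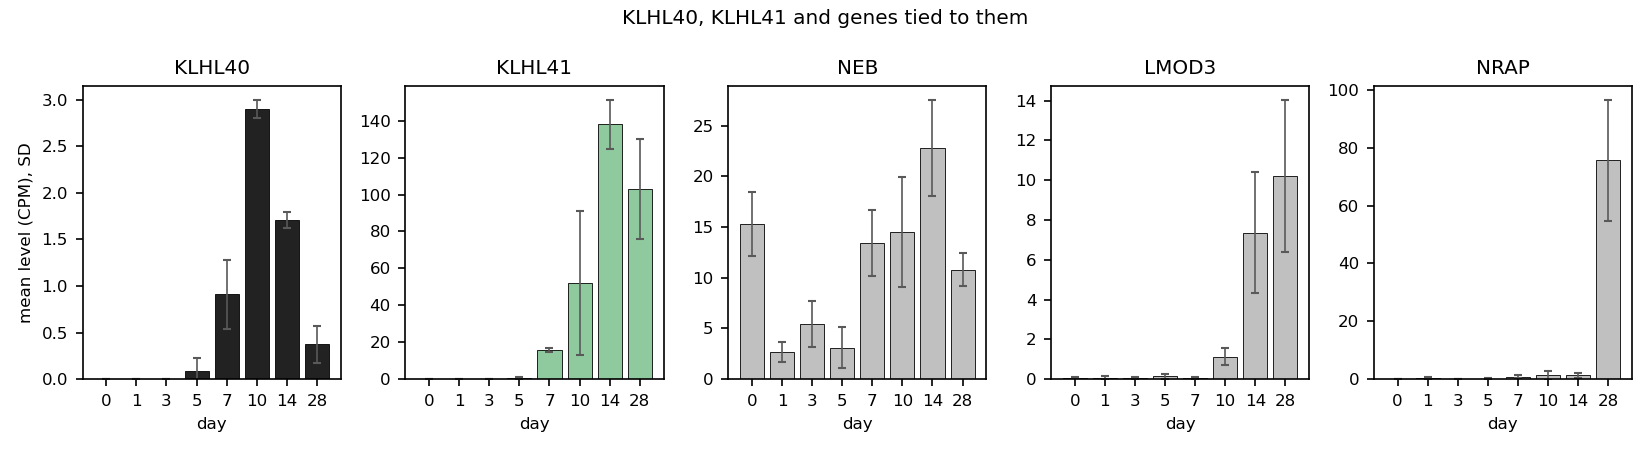
Mean level in CPM (vertical axis, linear from 0, own scale per gene; bars, with SD) of KLHL40, KLHL41, NEB, LMOD3 and NRAP by day (horizontal axis, evenly spaced). The mean of KLHL40 was highest at day 10, at 2.90 CPM. Those of KLHL41 and NEB were highest at day 14, and those of LMOD3 and NRAP at day 28. The changes of LMOD3 and KLHL41 from day 14 to day 28 did not pass the test. Nor did those of KLHL40 and NEB from day 10 to day 14.

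Titin (TTN), the giant protein that MuRF1 and MuRF2 bind, was at 2441 ± 172 CPM at day 28, against 372 ± 51.7 at day 7 (log2 change 2.72, SE 0.36, adjusted p = 9.93e-07). NBR1, an autophagy receptor on the titin kinase, was at 226 ± 21.1 CPM at day 28, against 96.3 ± 12.1 at day 7 (log2 change 1.23, SE 0.32, adjusted p = 0.00272). SQSTM1, of the same list, was at 79.4 ± 15.5 CPM at day 28, against 75.9 ± 11.5 at day 7 (log2 change 0.07, adjusted p = 0.866). IRS1, the FBXO40 substrate, was at 41.9 ± 2.00 CPM at day 28, against 144 ± 16.8 at day 7 (log2 change -1.79, SE 0.22, adjusted p = 3.49e-07). EIF3F, a translation factor that atrogin-1 marks for breakdown, was at 190 ± 21.1 CPM at day 28, against 426 ± 23.2 at day 7 (log2 change -1.16, SE 0.26, adjusted p = 0.000858). The myosin heavy chains went opposite ways: MYH7 had 17925 ± 4566 CPM at day 28, against 291 ± 23.8 at day 7, and MYH6 1869 ± 418 CPM at day 28, against 4817 ± 757 at day 7. Muscle creatine kinase (CKM) was at 197 ± 42.5 CPM at day 28, against 457 ± 31.1 at day 14 (log2 change -1.21, SE 0.29, adjusted p = 0.00538). Its change from day 7 to day 28 did not pass (-0.67, adjusted p = 0.0621). Between days 14 and 28, IRS1 was called lower (-1.10, adjusted p = 0.000591). TTN (0.20, adjusted p = 0.759), NBR1 (0.36, adjusted p = 0.519) and EIF3F (-0.42, adjusted p = 0.322) did not pass in that step.

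Of 22 tested regulators of these ligases, on a list of 24, 9 were called higher and 5 lower at day 28 against day 7, beside 25.0% and 23.6% of all genes, so the share of lower ones is near the background. At day 28 against day 14, 5 were higher and 2 lower, beside 7.96% and 7.78% of all genes. NR3C1, the glucocorticoid receptor, was at 74.0 ± 3.61 CPM at day 28, against 37.4 ± 7.26 at day 14 (log2 change 0.99, SE 0.28, adjusted p = 0.0173). KLF15, which acts with that receptor on the atrophy genes, was at 5.07 ± 1.91 CPM at day 28, against 16.2 ± 0.331 at day 14 (log2 change -1.68, SE 0.36, adjusted p = 0.00152). FOXO1 and FOXO3, direct activators of atrogin-1 and MuRF1, were both higher at day 28 than at day 7 (log2 changes 1.29 and 0.92, adjusted p = 0.000182 and 0.00716). Neither passed at day 28 against day 14 (0.58 and 0.02, adjusted p = 0.115 and 0.983). Compared with day 0, FOXO1 was lower at day 28 (-0.76, adjusted p = 0.00929) and FOXO3 higher (0.83, adjusted p = 0.00936). FOXO4 was lower at day 28 than at day 7 (-1.07, adjusted p = 0.00165). MEF2A had 625 ± 21.7 CPM at day 28, against 176 ± 12.8 at day 7 (log2 change 1.83, SE 0.30, adjusted p = 2.36e-05). TNFRSF12A, the TWEAK receptor, had 217 ± 21.4 CPM at day 28, against 53.3 ± 11.2 at day 7 (log2 change 2.02, SE 0.34, adjusted p = 3.74e-05).

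Cullins, RING and adaptor proteins are the shared parts of F-box and Kelch ligase complexes. By edgeR, 0 of 19 such genes were called at day 7 against day 5 and 0 at day 28 against day 14, while 1 and 2 had an unadjusted p under 0.05. Of all genes, 5.32% were higher and 5.02% lower in the first comparison, and 7.96% and 7.78% in the second. On a list of 19 genes, these counts do not show that the genes stayed constant. At day 28 against day 7, 8 were called higher and 1 lower, beside 25.0% and 23.6% of all genes. CUL3, the cullin of the Kelch proteins, had 118 ± 12.6 CPM at day 28, against 83.6 ± 4.28 at day 7 (log2 change 0.49, SE 0.28, adjusted p = 0.143). For CUL1 and SKP1, which carry F-box proteins, the changes were 0.94 (SE 0.33, adjusted p = 0.0212) and 0.62 (SE 0.22, adjusted p = 0.0244).

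Over the 23 libraries, the Pearson correlation of log2(CPM + 1) between pairs of the 8 genes ran from 0.697, for TRIM63 with KLHL40, to 0.989, for KLHL31 with KLHL41. The libraries share their days and depths, so these are descriptions only. Among 10334 protein-coding genes with at least 20 CPM on their highest day, the closest to TRIM63 was MYH7 (r = 0.995), followed by CSRP3 (0.991) and LMOD2 (0.989). The closest to TRIM55 were RCSD1, CHRM2 and ADAMTS6, each at 0.991, and to TRIM54 PLEKHA7 (0.977). For FBXO32 it was TNNT2 (0.992), with UNC45B (0.992) and NKX2-5 (0.991) next. FBXO40 was closest to MYPN (0.989), KLHL31 to PPP1R3A (0.994), KLHL40 to ABRA (0.970) and KLHL41 to KLHL31 (0.989).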

How the data were processed

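RNA of 23 libraries from 8 days was sequenced after ribosomal RNA depletion with a stranded total RNA kit, per the labels' protocols. Per the labels and the submitters' processing notes, Trim Galore 0.65 cut reads to 50 bases, STAR 2.7.0 placed them on GRCh38 (hg38) with GENCODE 38, and HTSeq counted them; the strand setting of the counting is not given in the sources used here. The deposited table holds raw counts per gene, as whole numbers. Of 57521 rows, 44 pseudoautosomal Y copies with 0 counts were left out. Symbols, positions and exon lengths came from GENCODE release 44 (56387 identifiers matched, 1090 not).

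Counts were fitted with edgeR 4.0.16 (R 4.3.3, limma 3.58.1): filterByExpr with a minimum of 10 counts, TMM scaling, a robust quasi-likelihood fit with the day as factor, and Benjamini-Hochberg adjustment over 22245 genes, tested on simulated data beforehand. CPM uses totals of tested genes times TMM factors. Log2 changes are the later day over the earlier one. Changes against days with 0 counts take 3 counts over that day as the floor, and those against 1 to 3 counts an exact 95% interval. Intervals and floors cover counting error only. Shares were compared by exact permutation.

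The members and gene lists were chosen with earlier results of these data known. Besides the 8 members, at most 3 called genes with the largest rise and 3 with the largest fall at day 28 against day 7 (at least 5 CPM on the higher day) were named per list, plus partners tied to a member in textbooks, and for likeness the 3 closest genes. Same-numbered replicates did not deviate together in a steady way, which does not show that they were unpaired. Alternatives were RLE, upper-quartile and total scaling, other filters, DESeq2 1.42.0, a replicate block, only the libraries of the 2 days, each library left out, and longest-transcript length.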

Additional observations from a re-analysis of the deposited data

How the results depend on the processing

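No alternative turned the direction of a called change. Of 944 recomputed log2 changes of the 8 genes, 887 kept direction and side of the threshold, 22 lost the call, 14 gained one and 21 uncalled ones changed sign. The number of the 8 called was 2 at day 3 against day 1, and 1 with library totals alone or with only the libraries of the 2 days; it ranged from 1 to 2 over the omissions of single libraries. At day 5 against day 3 it was 5, 4 with only the libraries of the 2 days, where TRIM63 had no value, and 5 to 6 over the omissions. At day 7 against day 5 it was 8, and 7 by DESeq2 or with only the libraries of the 2 days, both without a value for KLHL40. At day 10 against day 7 it was 4, 6 with only the libraries of the 2 days, 5 with a minimum of 30 counts, 3 with library totals alone, and 1 to 3 over the omissions. At day 14 against day 10 it was 2, 4 by DESeq2, 3 with only the libraries of the 2 days, and 0 to 2 over the omissions. The cause was not tested. With the replicate block, the number called was 1 at day 1 against day 0 and 2 at day 3 against day 1, as without it. No call of the 8 changed. The correlation of same-numbered libraries' deviations from their day means ran from -0.464 to 0.279. With 2 or 3 libraries a day, this cannot tell whether same-numbered libraries shared a culture or date.

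Over all genes, 1706 were called at day 10 against day 7, but 292 without day 10 replicate 1 and 4499 in the fit of the 2 days alone; 833 at day 14 against day 10, but 186 without day 10 replicate 2, 1861 in the fit of the 2 days and 1392 by DESeq2. Of the earlier steps, 7081 were called at day 1 against day 0 (3944 without day 1 replicate 3), 3698 at day 5 against day 3 (7886 without day 5 replicate 2, 1402 in the fit of the 2 days) and 2301 at day 7 against day 5 (3855 without day 5 replicate 2, 755 in the fit of the 2 days). At day 28 against day 14 the count was 3501, and 6274 in the fit of the 2 days. Library totals alone shifted the median of all genes by up to -0.32, at day 28 against day 7, and the share of higher genes among those called was then 34.2%, against 51.4%; at day 28 against day 14 it was 32.0%, or 40.2% with upper-quartile factors, against 50.6%. It was 32.0% against 54.4% at day 10 against day 7, 67.9% against 51.5% at day 7 against day 5 and 64.0% against 48.9% at day 3 against day 1. With the longest transcript as length, TRIM63 made up 43.6% of the MuRF counts per kilobase at day 28, against 22.9% at day 14. Low counts of the genes limit the days up to day 5, when most of the 8 had under 100 counts, and KLHL40 throughout.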

Other observations

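Of 44 other Kelch proteins tested on a list of 46, 16 were called higher and 4 lower at day 28 against day 7, where 25.0% of all genes were higher and 23.6% lower. Between days 14 and 28, 4 were higher and 2 lower, near the background of 7.96% and 7.78%. KLHL13, an adaptor of CUL3 in cell division, was at 90.0 ± 21.0 CPM at day 28, against 9.0 ± 0.354 CPM at day 7 (log2 change 3.32, SE 0.39, adjusted p = 1.88e-07). KLHL3, which in the kidney marks WNK kinases for breakdown, was at 85.1 ± 3.44 CPM at day 28, against 21.1 ± 2.33 at day 7 (log2 change 2.01, SE 0.27, adjusted p = 1.24e-06). KLHL14 was at 3.26 ± 1.81 CPM at day 28, against 39.2 ± 3.73 at day 7 (log2 change -3.59, SE 0.34, adjusted p = 5.61e-09).

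Among 17 other ubiquitin ligases of muscle, 9 were called higher and 1 lower at day 28 against day 7, where 25.0% of all genes were higher and 23.6% lower. RNF207, a cardiac RING-finger protein linked to the QT interval, was at 121 ± 1.20 CPM at day 28, against 21.5 ± 1.80 at day 7 (log2 change 2.49, SE 0.31, adjusted p = 3.67e-07). CBLB was lower, at 34.3 ± 1.53 CPM at day 28, against 59.6 ± 5.60 at day 7 (log2 change -0.80, SE 0.26, adjusted p = 0.0141). Of the 14 genes of the proteasome core, 1 was called higher and 3 lower at day 28 against day 7. Against day 0, 12 were lower at day 28 and 2 did not pass, where 32.1% of all genes were higher and 28.4% lower.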
